A study of Mus musculus with 8 samples.

Results

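The promoters of long noncoding RNA (lncRNA) genes were examined in 8 libraries of reduced representation bisulfite sequencing (RRBS) of mouse mammary tumors. A promoter was the window from 1000 bp before to 1000 bp after the start of an autosomal gene that GENCODE M21 lists as lincRNA (a long intergenic noncoding RNA) or antisense. It had to hold at least 3 cytosines with at least 10 reads in every library, and no protein-coding transcript could start within 2000 bp. Of 8122 such genes, 5747 had no cytosine with enough reads in all 8 libraries, 585 had 1 or 2, and 1028 of the remaining 1790 lay too close to a coding start. The 762 promoters that were left (540 lincRNA and 222 antisense) are a small part of the 15594 gene-start windows tested, of which 11576 belonged to protein-coding genes. They were picked by annotation and coverage, not by their methylation. At the edge of the rule, the 167 promoters with exactly 3 cytosines had a mean level of 55.0% over the 8 libraries, and the 266 left out with 2 cytosines had 57.7%. The 24 promoters with a coding start up to 500 bp beyond the distance limit had 33.1%, and the 32 left out up to 500 bp inside it had 25.7%.

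Tumors came from NIC-5231, a mouse mammary tumor cell line driven by ErbB2, and were raised from cells put into mammary fat pads of 5- to 7-week-old NSG mice, which lack a working adaptive immune system. All groups received the same saline, PEG and DMSO carrier by intraperitoneal injection every 2 days. The carrier held no drug (vehicle), 10 mg/kg C29, 1 mg/kg 5-azadC, or both at these doses (C29+5-azadC, the combination). C29 inhibits the nuclear receptor ERRα. Decitabine (5-azadC) is built into DNA in place of cytidine and traps the DNA methyltransferases there. Each group of 5 mice gave 2 libraries, and DNA of 2 tumor-bearing mice was mixed for each. Tumor and host are both mouse, so that in bulk DNA a change in methylation of the tumor cells and a change in the share of host cells cannot be told apart. The line is a single model, and the libraries of a group vary only as much as pools of mice do.

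In mammals, methyl groups are carried by cytosines of CpG dinucleotides, and DNMT1 copies the pattern to the new strand at replication. Most promoters of protein-coding genes lie in CpG islands, which are usually free of methylation, whereas CpG-poor sequence is usually methylated. Many lncRNA genes start in CpG-poor sequence and are transcribed at low levels in few tissues, and others, such as Malat1, start in a CpG island and are transcribed in nearly every cell.

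The measured stretches of 6 promoters are shown here because the results turn on them. Gm15494 was lower in every drug-treated library, Gm45680 and 4930594O21Rik were among the promoters with the smallest p for 5-azadC over all libraries, Gm27197 had the largest gain with both drugs, H19 is the one promoter from the list of imprinted lncRNAs, and Malat1 stands for the unmethylated promoters. Each is the GRCm38/mm10 reference on the gene's own strand, 5′ to 3′, and capitals mark the CpGs that were measured in all 8 libraries. Gm15494 was read at chr7:4470388-4470461 (minus strand), 824 to 897 bp after the gene start, Gm45680 at chr8:11948300-11948529 (minus strand), 4930594O21Rik at chr3:37613561-37613824 (plus strand), Gm27197 at chr2:38347999-38348185 (minus strand) and H19 at chr7:142578093-142578253 (minus strand). Malat1 was read at chr19:5803130-5803235 (minus strand), 563 to 458 bp before the gene start and not at the start itself.
Gm15494: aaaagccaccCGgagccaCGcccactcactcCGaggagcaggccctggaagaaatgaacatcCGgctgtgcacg
Gm45680: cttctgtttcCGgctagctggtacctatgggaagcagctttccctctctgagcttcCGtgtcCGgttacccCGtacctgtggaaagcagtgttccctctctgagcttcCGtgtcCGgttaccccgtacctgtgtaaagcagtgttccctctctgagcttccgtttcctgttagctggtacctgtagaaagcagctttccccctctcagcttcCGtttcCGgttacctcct
4930594O21Rik: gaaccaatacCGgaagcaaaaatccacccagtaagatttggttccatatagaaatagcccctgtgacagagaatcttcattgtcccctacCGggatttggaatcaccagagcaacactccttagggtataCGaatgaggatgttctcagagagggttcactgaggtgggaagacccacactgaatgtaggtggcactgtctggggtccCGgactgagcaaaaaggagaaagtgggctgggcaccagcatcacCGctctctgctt
Gm27197: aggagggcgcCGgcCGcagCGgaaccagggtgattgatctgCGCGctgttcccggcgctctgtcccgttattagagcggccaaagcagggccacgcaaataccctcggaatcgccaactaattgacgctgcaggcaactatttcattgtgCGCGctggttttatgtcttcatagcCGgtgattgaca
H19: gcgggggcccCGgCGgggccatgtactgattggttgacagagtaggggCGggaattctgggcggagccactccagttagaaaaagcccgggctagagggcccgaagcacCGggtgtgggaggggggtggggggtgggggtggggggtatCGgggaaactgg
Malat1: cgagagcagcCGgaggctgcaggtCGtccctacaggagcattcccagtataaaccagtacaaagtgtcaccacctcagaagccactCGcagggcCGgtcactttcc
The contrast in CpG density is visible in the letters. The 264 bases of 4930594O21Rik hold 5 CpGs and the 230 bases of Gm45680 hold 10, while the 187 bases of Gm27197 hold 17, of which 8 were measured. Gm45680 carries a short unit more than once, with its CpGs.

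Total reads over cytosines were 51359825 to 81299065 per library, and the lowest were the libraries of the combination. Of the methylated control DNA 97.5% to 98.3% of reads were methylated, and of the unmethylated control 0.216% to 0.329%. A promoter held a median of 5 cytosines (3 to 126) and 288 reads in a library, against a median of 18 cytosines in a protein-coding window, and 536 of the 762 had at least 100 reads in every library. The limits given for a count of 0 and the logistic tests cover the counting of reads and no other error. A CpG read on both strands counts as separate cytosines, 28 promoters share all their cytosines with another one, and there are 748 distinct sets. C29 library 2 stood apart from the other library of its group, as given beside the results that rest on it.

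The lncRNA promoters were spread over the whole range of methylation. Their mean level over the 8 libraries was below 20% at 252 promoters (low), 20% to 80% at 356 (intermediate) and above 80% at 154 (high). The protein-coding windows passing the same filter were low at 9838 of 11576, intermediate at 1493 and high at 245. As a share, 25.5% of the lncRNA promoters were below 10% methylation, against 78.7% of the coding ones, and 7.74% against 0.795% were at 90% or above. At 20 lncRNA promoters not 1 methylated read was seen in any library, which on their reads allows a level of up to 6.67% in the shallowest and 0.671% in the deepest of them. Antisense promoters were more often high than lincRNA promoters, with 56 of 222 (25.2%) against 98 of 540 (18.1%).

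**Figure D1:**
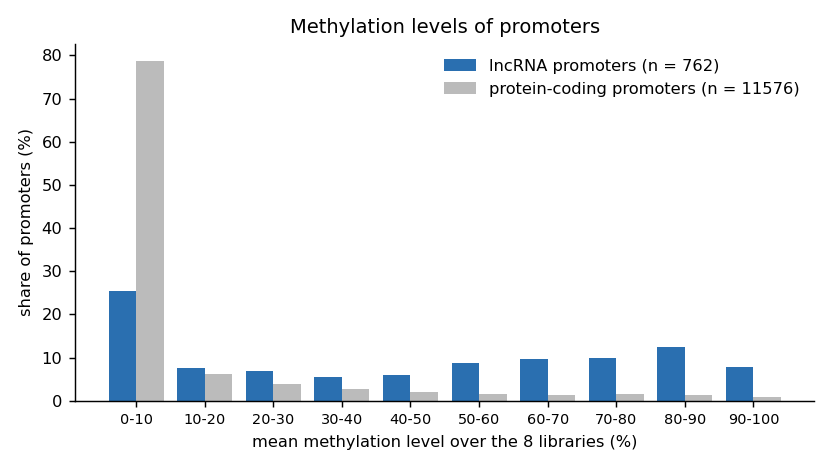
Share of promoters (%, vertical axis) in each 10-point bin of mean methylation level over the 8 libraries (%, horizontal axis), for 762 lncRNA promoters and 11576 protein-coding ones. The coding promoters pile up below 10%, whereas the lncRNA promoters fill all bins, with 25.5% of them in the lowest.

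The base composition of the windows followed these classes. The observed over expected CpG ratio (CpGs counted in the window, relative to those expected from its C and G content) had a median of 0.356 in lncRNA promoters and 0.638 in coding ones. A ratio of at least 0.6, as is usual for a CpG island, was found at 107 lncRNA promoters (14.04%) and at 58.8% of coding windows. Within the lncRNA promoters the median ratio was 0.460 in the low class, 0.330 in the intermediate and 0.307 in the high class. The CpG-rich ones averaged 20.98 ± 0.371% methylation in vehicle (SD, n = 2 libraries), and the 256 with a ratio under 0.3 averaged 61.1 ± 0.680%. Coding windows with a ratio under 0.3 (436) averaged 51.3 ± 0.0601%. The position of the start also went with the level. Of the 762 starts, 69 lie in an exon of a protein-coding gene and 126 in an intron, with vehicle means of 55.7 ± 0.171% and 58.6 ± 0.176%, and the 567 outside coding genes had 44.0 ± 0.245%.

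Along the window, methylation was lowest around the start. In vehicle, cytosines up to 250 bp before the start averaged 30.0 ± 0.392% (1420 cytosines of 280 promoters) and those up to 250 bp after it 30.0 ± 0.309%. From 750 to 1000 bp upstream the mean was 50.5 ± 1.31%, and from 750 to 1000 bp downstream 42.6 ± 0.0938%. In 5-azadC tumors the mean was below both vehicle libraries in all 8 bins, with differences of -2.92 to -5.99 points. In the combination they were -1.76 to -6.49 points.

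**Figure D2:**
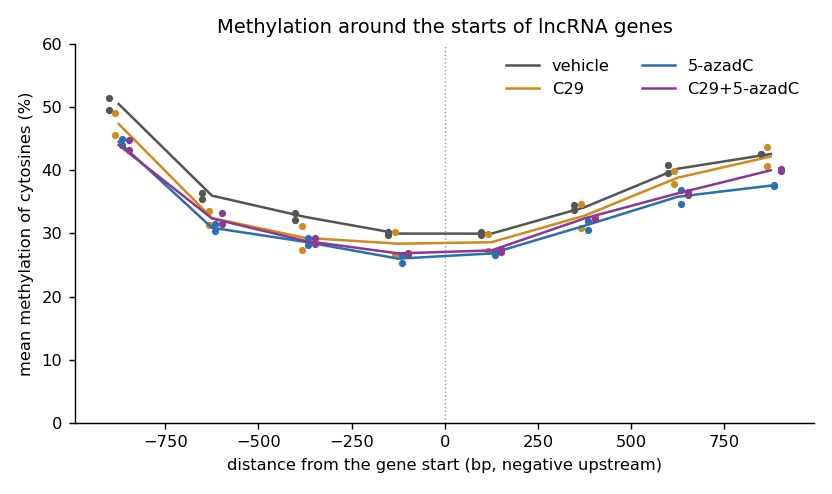
Mean methylation (%, vertical axis) of cytosines in 250 bp bins by distance from the gene start (bp, horizontal axis, negative upstream), with a line per group and a point per library. All groups dip to 26.0% to 30.0% next to the start, and the vehicle line lies above the other lines in every bin.

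5-azadC gave the lowest mean over the lncRNA promoters. The average over all 762 came to 47.4% and 47.6% in vehicle, to 47.5% and 45.1% in C29, to 41.2% and 41.7% in 5-azadC, and to 42.5% and 42.9% in the combination libraries. Both groups given 5-azadC lay below all 4 other libraries, and neither overlapped the other. The difference from vehicle was -6.01 points with 5-azadC and -4.78 points with the combination, and both exceed the SD of the group means (0.168 to 0.377 points in vehicle, 5-azadC and the combination). With C29 it was -1.20 points, within the spread of the C29 libraries (SD 1.68 points), and without C29 library 2 the difference was -0.013 points. The median of the differences of single promoters was smaller, at -3.52 points with 5-azadC, -2.41 with the combination and 0 with C29. No test was run on these means, because the set was chosen with earlier results of these data known. The 3 treatments are set against the same vehicle libraries, and their differences are therefore not independent.

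The lower mean with 5-azadC was found at lncRNA promoters of every autosome and was largest in points in the methylated classes. By chromosome, the mean of lncRNA promoters with 5-azadC was below vehicle on 19 of 19 autosomes (-2.14 to -10.2 points), and with the combination on 19 of 19 (-2.46 to -7.75 points). With C29 it was lower on 14 of 19. High promoters averaged 92.6% and 93.0% in vehicle, 92.7% and 91.1% with C29, 82.7% and 85.1% in 5-azadC, and 85.5% and 86.4% with the combination. Intermediate promoters averaged 57.5% and 57.9%, 57.7% and 53.3%, 49.2% and 49.4%, and 50.4% and 51.3% in the same order. In low promoters the group means were 5.33 ± 0.112%, 5.40 ± 0.0170%, 4.43 ± 0.116% and 4.70 ± 0.411%. The classes use the mean of all 8 libraries, treated ones included.

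Protein-coding windows of the same class were lower too. With 5-azadC the difference from vehicle was -7.17 points in high and -6.17 points in intermediate coding windows, against -8.84 and -8.39 points in the lncRNA promoters. Over all coding windows the mean was 10.0 ± 0.0559% in vehicle and 8.80 ± 0.218% with 5-azadC, since most of them are near 0. The 1028 lncRNA windows left out for a nearby coding start had levels like the coding windows, with 10.9 ± 0.273% in vehicle and 9.63 ± 0.226% with 5-azadC. C29 showed the opposite order: the difference was -5.20 points in intermediate coding windows and -2.23 points in intermediate lncRNA promoters, with SDs between the C29 libraries of 4.10 and 3.13 points.

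**Figure D3:**
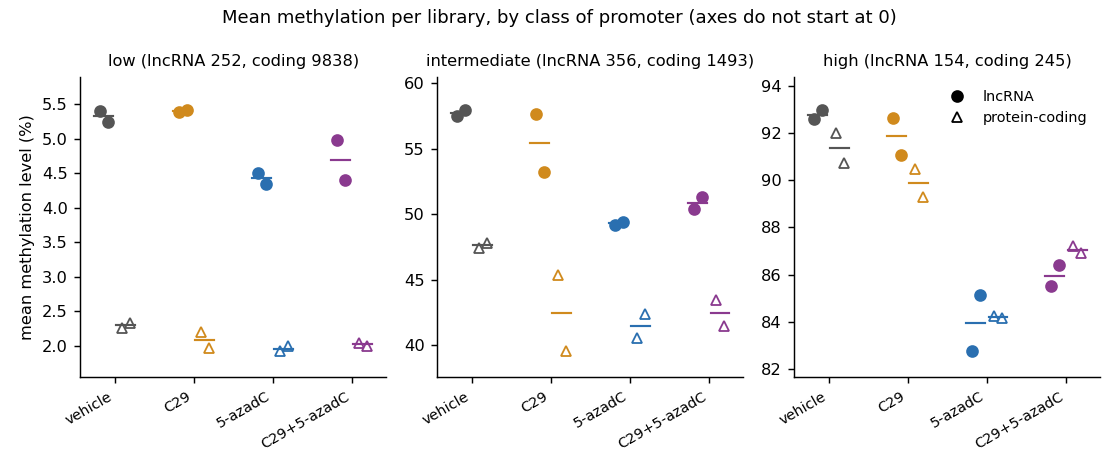
Mean methylation level (%, vertical axis) of low, intermediate and high promoters in each library, by group (horizontal axis), with a filled circle per library for lncRNA promoters, an open triangle for coding ones and a bar for the group mean. In the high class the 4 libraries with 5-azadC sit at 82.7% to 86.4% for lncRNA promoters, below the 91.1% to 93.0% of the other 4, and the C29 libraries lie apart from each other in the intermediate class.

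Single promoters were then compared, with reads summed over the window and a logistic likelihood-ratio test. A promoter was called at a Benjamini-Hochberg q below 0.01 over all 15594 windows and a pooled difference of at least 25 percentage points. With 5-azadC, 46 of 762 lncRNA promoters (6.04%) were called, against 1.56% of all windows, and 43 were lower (all windows 1.37%) and 3 higher (0.186%). With the combination 44 (5.77%) were called, against 1.62% of all windows, with 39 lower (1.31%) and 5 higher (0.314%). With C29 28 (3.67%) were called, against 1.32% of all windows, with 21 lower (1.03%) and 7 higher (0.295%). Called promoters whose treated libraries both lay on one side of both vehicle libraries numbered 37 with 5-azadC (4.86% of the 762, against 1.33% of all windows), 34 with the combination (4.46% against 1.39%) and 23 with C29 (3.02% against 1.15%). With at least 100 reads in every library as well there were 17 (2.23% against 0.622%), 18 (2.36% against 0.654%) and 7 (0.919% against 0.539%), in the same order of treatments. In all, 94 promoters (12.3%, all windows 3.57%) were called with at least 1 treatment, always against the same vehicle libraries.

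The higher share of calls went along with the class and the small number of cytosines of these windows. Among intermediate promoters with 3 or 4 cytosines, 26 of 159 lncRNA promoters (16.4%) and 39 of 302 coding windows (12.9%) were called with 5-azadC. With 5 to 9 cytosines it was 9 of 117 (7.69%) and 41 of 414 (9.90%), and with 10 or more 1 of 80 (1.25%) and 14 of 777 (1.80%). Of the 201 lncRNA promoters with 10 or more cytosines in any class, 0 were called in C29, 1 in 5-azadC and 2 in the combination. Among high promoters with 3 or 4 cytosines it was 7 of 89 (7.87%) against 7 of 118 (5.93%), with 5 to 9 cytosines 3 of 57 (5.26%) against 1 of 83 (1.21%), and with 10 or more 0 of 8 against 0 of 44. In the low class 0 of 252 lncRNA promoters were called with 5-azadC. These differences between lncRNA and coding windows were not tested.

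The test leaves out the spread between libraries, which was wide. The libraries of vehicle differed by at least 25 points at 65 promoters (8.53%), those of C29 at 71 (9.32%), of 5-azadC at 88 (11.5%) and of the combination at 105 (13.8%). These counts are for single libraries, whereas the calls compare means of 2. At the same promoters the median absolute difference was 6.03 to 7.21 points between libraries of a group and 4.55 to 6.39 points between a treatment and vehicle. The direction carried more than the size: with 5-azadC 65.5% of lncRNA promoters were lower than vehicle by any amount (all windows 52.7%), with the combination 60.6% (52.1%) and with C29 49.2% (48.7%). Within a class, lncRNA and coding windows were close with 5-azadC, at 73.9% and 72.0% lower (intermediate) and 78.6% and 78.8% (high). With the combination it was 68.3% and 69.9% (intermediate) and 73.4% and 69.4% (high). With C29, 54.2% of intermediate lncRNA promoters and 68.8% of intermediate coding windows were lower. These shares were not tested. Both 5-azadC libraries were below both vehicle libraries at 225 promoters (29.5%, all windows 18.9%) and above them at 48 (6.30%, all windows 8.99%). For the combination it was 194 below (25.5%, all windows 17.4%) and 67 above (8.79%, all windows 8.7%), and for C29 120 below (15.7%, all windows 14.9%) and 96 above (12.6%, all windows 10.8%).

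**Figure D4:**
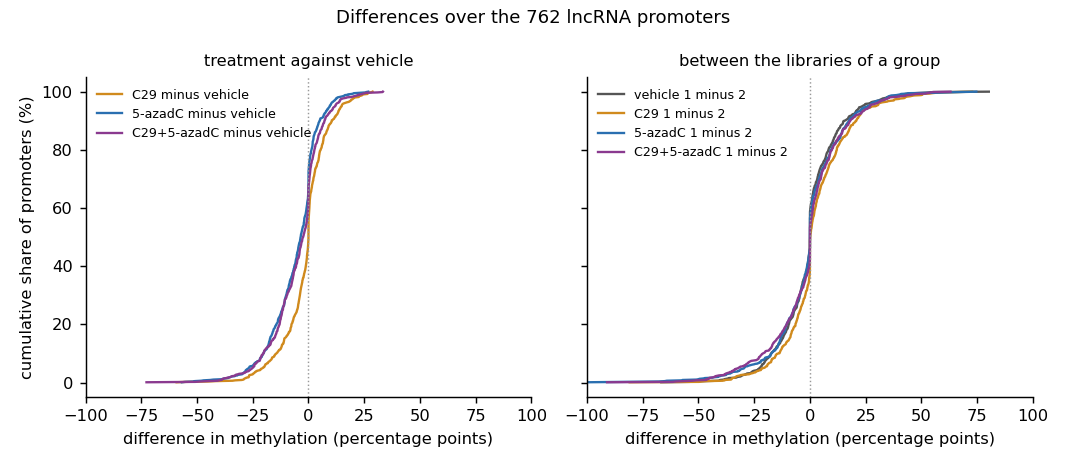
Cumulative share of the 762 lncRNA promoters (%, vertical axis) by difference in methylation (percentage points, horizontal axis), for pooled treatment minus vehicle (left) and library 1 minus library 2 of each group (right). The 5-azadC and combination curves lie left of the C29 curve, and the curves between single libraries spread wider than those of pooled treatments. Between libraries 8.53% to 13.8% of promoters differ by at least 25 points, and between treatment and vehicle 3.67% to 6.04%.

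Of the promoters called with 5-azadC, those with the largest losses, at least 100 reads in every library and both treated libraries on one side of both vehicle libraries are described first. Scpep1os, antisense and named for the serine carboxypeptidase gene Scpep1, stood at 69.8% and 100% in vehicle, 49.5% and 54.9% with C29, 35.4% and 45.6% with 5-azadC and 45.6% and 68.6% with the combination (4 cytosines, 103 to 291 reads). All drug-treated libraries were below both vehicle libraries, and the vehicle libraries lay far apart. It fell by 37.6 points with 5-azadC (logistic q = 4.1e-25) and fell by 26.3 points with C29 (q = 5.6e-12), and with the combination the difference of -19.1 points was under the 25-point limit. Gm48607, an uncharacterized lincRNA, had 83.8% and 100% in vehicle, 47.1% and 64.0% with 5-azadC, and 94.2% and 98.4% with the combination. It was thus low with 5-azadC alone, and fell by 36.0 points there (q = 5.9e-39), with an F test p for the interaction of the drugs of 0.023 (adjusted 1).

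Gm15494 starts in an exon of Eps8l1, on the opposite strand. Its promoter (chr7:4470285-4472285) had 50.4% and 63.1% in vehicle, 36.1% and 34.9% with C29, 16.4% and 27.1% with 5-azadC and 21.5% and 23.8% with the combination, on 144 to 584 reads. The order vehicle, C29, then both groups with 5-azadC held without overlap. It fell by 34.9 points with 5-azadC (q = 5.3e-48) and fell by 33.1 points with the combination (q = 6e-27), and the C29 difference of -20.6 points did not reach 25. Its CpG 843 bp after the start (the second in capitals) was methylated in 69.9% of 229 vehicle reads, 40.9% of 335 C29 reads, 17.9% of 351 5-azadC reads and 15.8% of 146 combination reads. The CpG at 856 bp (the third) varied less, with 33.6%, 31.9%, 22.2% and 29.5%.

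Gm45846 and Gm45847, overlapping lincRNA genes that share all 9 cytosines, had 49.2% and 71.6% in vehicle and 35.6% and 28.8% with 5-azadC. They fell by 31.9 points (q = 1.8e-37), while the C29 libraries lay at 76.1% and 25.7%. Gm11670 starts in an exon of Axin2, on the opposite strand, and had 64.2% and 72.8% in vehicle, 63.5% and 76.0% with C29, 39.5% and 39.3% with 5-azadC and 51.9% and 43.1% with the combination. All 4 libraries with 5-azadC were below the other 4, and it fell by 29.8 points with 5-azadC (q = 2.7e-18). The one gain that met the same limits was at Gm43661, an uncharacterized lincRNA, with 31.4% and 35.7% in vehicle and 45.6% and 65.8% with 5-azadC, a rise of 25.6 points (q = 1.5e-12). Scpep1os, Gm48607 and Gm15494 kept their call whichever of the 4 libraries was left out. Gm45846, Gm45847 and Gm11670 lost it without vehicle library 2 (-17.7, -17.7 and -24.8 points), and Gm43661 without vehicle library 1 (23.2 points) or without 5-azadC library 2 (12.2 points). Calls also ended for Scpep1os at a minimum of 20 reads (-18.8 points), for Gm45846 and Gm45847 with the upstream part of the window alone (-16.9 points), and for Gm11670 and Gm43661 with both strands of a CpG summed (-17.05 and 24.3 points). Within 500 bp of the start the loss at Gm45846 and Gm45847 was larger (-51.8 points, called), and as the unweighted mean over cytosines Gm43661 differed by 15.8 points, uncalled.

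With the combination, the largest losses among promoters with at least 100 reads in every library and no overlap with vehicle were at Gm20139, Platr19 and Gm20751. Gm20139, a lincRNA gene 126094 bp from the nearest coding start (Tnfaip3), had 85.1% and 64.7% in vehicle, 57.6% and 57.6% with C29, 59.0% and 60.4% with 5-azadC, and 32.7% and 41.1% with the combination. The single drugs lay between vehicle and the combination, and it fell by 40.2 points with the combination (q = 5e-24). Platr19, one of a series of lncRNAs named for their expression in pluripotent cells, had 99.4% and 90.2% in vehicle, 82.6% and 73.1% with C29, 64.3% and 65.3% with 5-azadC and 72.2% and 32.4% with the combination. Every treated library was below both vehicle libraries. It fell by 39.1 points with the combination (q = 2e-37) and fell by 29.5 points with 5-azadC (q = 2.2e-25). Gm20751 had 100% and 85.9% in vehicle, 50.8% and 82.0% with C29, 63.7% and 81.3% with 5-azadC and 57.4% and 52.0% with the combination, and fell by 38.2 points there (q = 3.7e-29).

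Next in size were 4933427I22Rik, which fell by 34.9 points with the combination (87.8% and 100% in vehicle, 46.5% and 75.9% in the combination, q = 3.9e-29), and Gm31138, which fell by 34.5 points (56.0% and 73.5% against 17.4% and 38.0%, q = 6.9e-39). Gm20139, Gm20751 and Gm15494 kept their call with the combination whichever library was left out. Platr19 lost it without combination library 2 (-22.1 points), 4933427I22Rik without combination library 1 (-18.9 points) and Gm31138 without vehicle library 2 (-23.7 points). Read only within 500 bp of the start, 4933427I22Rik differed by -0.423 points, with both strands summed by -21.2 points and as the unweighted mean over cytosines by -16.8 points, and none of these was called. The unweighted mean also ended the call of Gm31138 (-24.8 points).

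The 5 gains called with the combination were 0.656% of lncRNA promoters, against 0.314% of all windows. Of these 5, 4 were at promoters that start in an intron of a coding gene, as 126 of all 762 do. Of the 3 gains with 5-azadC 0 started in an intron, and of the 7 with C29 1 did. This was not tested. The 3 gains with the combination that met the limits on reads and overlap are described here, all at antisense genes. Gm27197 lies in Lhx2, which encodes a LIM homeobox transcription factor, and its start is 2443 bp from a start of that gene. Its promoter had 11% and 23.1% in vehicle, 11.4% and 7.2% with C29, 16.1% and 12.3% with 5-azadC, and 62.4% and 41.3% with the combination, on 178 to 531 reads. Only the combination libraries stood above the rest, with a rise of 33.3 points (q = 3.6e-31). Within the stretch printed, the CpGs 282 and 284 bp after the start were methylated in 55 of 55 combination reads, against 18.4% of 76 vehicle reads at each. Single libraries were often all or nothing on few reads: the CpG at 173 bp had 100% in vehicle library 2 and 13.5% in library 1, and 100% and 0% in the combination libraries. The Lhx2 promoter itself was at 0% to 16.7% in the 8 libraries, with 0% and 3.31% in the combination.

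Gm16237, in an intron of Disc1, had 23.9% and 44.3% in vehicle and 69.8% and 62.4% with the combination, a rise of 31.0 points (q = 3.6e-22). Gm15978, in an intron of Ttc7, had 25.4% and 9.4% in vehicle and 47.3% and 38.9% with the combination, a rise of 25.4 points (q = 1.1e-15), and it was also higher in all 4 libraries of the single drugs (25.8% to 44.7%). All these calls lost their standing without 1 library: Gm27197 without combination library 1 (24.5 points), Gm16237 without vehicle library 1 (21.7 points), and Gm15978 without vehicle library 2 (17.6 points) or without combination library 1 (21.4 points). At Gm27197 the rise moved both ways with the cytosines used, to 16.7 points with both strands summed and 18.4 points at a minimum of 5 reads (both uncalled), and to 63.7 points at a minimum of 20 reads and 50.8 points within 500 bp of the start (both called). At Gm15978 it was 18.9 points with both strands summed, 15.5 points at a minimum of 20 reads and 21.5 points as the unweighted mean over cytosines, all uncalled.

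C29 alone gave fewer calls, and the named ones rested on single libraries. 9530082P21Rik starts in an exon of Kremen2, on the opposite strand, and had 66.3% and 82.7% in vehicle, 57.4% and 26.6% with C29, 75.6% and 73.2% with 5-azadC and 77.0% and 73.8% with the combination. It fell by 34.1 points with C29 (q = 9.7e-55), and without C29 library 2 the difference was -18.03 points. Gm15816, which starts in an exon of Ank1 on the opposite strand, had 61.5% and 74.8% in vehicle, 42.7% and 25% with C29, 34.6% and 41.6% with 5-azadC and 41.0% and 32.1% with the combination. All 6 treated libraries were below both vehicle libraries, and the differences were -28.9 points for 5-azadC, -28.9 for the combination and -32.9 for C29 (q = 1.5e-28, 6.1e-32 and 3.6e-37).

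The other C29 calls of this kind were Gm20751 (-27.9 points), Gm35189 (-26.8), Gm39119 (-26.6), Scpep1os (-26.3) and the gain at Gm20005 (26.5 points). Gm35189 was at 96.6% and 95.5% in vehicle, 81.8% and 54.5% with C29, 54.3% and 74.7% with 5-azadC, and 85.9% and 97.5% with the combination. Its level was thus lower with either drug alone, and overlapped vehicle when both were given. Each of these 7 C29 calls was lost without at least 1 library. The C29 difference came to -24.2 points at Gm15816 and -14.3 at Gm35189 without C29 library 2, to -11.4 at Gm20751 and -16.7 at Gm39119 without C29 library 1, and to -18.2 at Scpep1os and 18.7 at Gm20005 without vehicle library 2. With both strands summed it was -17.5 points at 9530082P21Rik and -11.7 at Gm39119, with a minimum of 20 reads -21.9 at Gm35189 and -14.4 at Scpep1os, and within 500 bp of the start or upstream of it -5.67 at Gm15816. As the unweighted mean over cytosines it was -4.65 points at Gm15816, -20.2 at Gm39119 and 18.9 at Gm20005, all uncalled. Gm39119 also moved the other way, to -53.7 points with the upstream part alone and -42.6 at a minimum of 20 reads, both called. With a minimum of 5 reads 9530082P21Rik came to -14.4 points and Gm39119 to -11.5, uncalled.

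Named after their values were seen, 4 promoters (0.525%, all windows 0.154%) were called with all 3 treatments, which share the vehicle libraries. They were Gm15816 and the lincRNA genes Gm20597, Gm36543 and Gm47849. Gm47849 had 99.1% and 100% in vehicle, 81.6% and 60.2% with C29, 40.0% and 80.3% with 5-azadC and 53.1% and 49.6% with the combination. Gm36543 had 100% and 82.8% in vehicle and 24.6% to 65.6% in the 6 treated libraries. Gm20597 had 66.7% and 93.0% in vehicle and 0.0% to 62.5% in the treated ones, on as few as 36 reads. The last 3 were read at only 3 cytosines each.

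Setting the 4 libraries with 5-azadC against the 4 without, with C29 as a covariate, lets the spread between libraries count. By the logistic F test with overdispersion correction, 0 of 762 lncRNA promoters were called at q below 0.05 (0.0% of all windows), and edgeR and limma gave 0 as well. At an unadjusted p under 0.05 there were 101 lncRNA promoters by the F test (13.3%, all windows 9.16%), 28 by edgeR (3.67%, all windows 3.15%) and 73 by limma (9.58%, all windows 7.05%). Of the 101, 88 were lower with 5-azadC (11.5%, all windows 6.91%) and 13 higher (1.71%, all windows 2.26%). For C29 the F test gave 0 at q below 0.05 and 52 at an unadjusted p under 0.05 (6.82%, all windows 8.12%), 27 lower (3.54%, all windows 5.25%) and 25 higher (3.28%, all windows 2.87%), with 10 by edgeR (1.31%, all windows 2.54%) and 31 by limma (4.07%, all windows 6.03%), so that by each tool the share of lncRNA promoters was below that of all windows. For the interaction of the drugs it gave 0 and 24 (3.15%, all windows 3.07%), with 12 by edgeR (1.57%, all windows 2.64%) and 37 by limma (4.86%, all windows 5.84%). With a spread between libraries as wide as here these tests could not be relied on to call a window at q below 0.05, and the counts of 0 carry no information.

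At 51 promoters (6.69%, all windows 2.28%) all 4 libraries with 5-azadC were below all 4 without, and at 7 (0.919%, all windows 0.731%) they were above. By class, these 51 were 19 of 154 high promoters (12.3%), 27 of 356 intermediate (7.58%) and 5 of 252 low ones (1.98%). Among coding windows the same held at 22 of 245 high (8.98%), 46 of 1493 intermediate (3.08%) and 123 of 9838 low ones (1.25%). The intermediate shares rest on C29 library 2. In coding windows it averaged 39.5%, below the 40.5% to 43.5% of the libraries with 5-azadC. In lncRNA promoters it averaged 53.3%, above their 49.2% to 51.3%. The shares were not matched for the number of cytosines, and their difference was not tested. For C29 the counts were 5 below (0.656%, all windows 1.15%) and 8 above (1.05%, all windows 0.705%).

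The promoters of smallest p for 5-azadC differed by less than the 25 points set above. Gm45680 and B020031H02Rik, a pair of lincRNA genes that start close together on opposite strands of chromosome 8 and share all 15 cytosines, had 76.5% and 77.5% in vehicle, 78.9% and 84.4% with C29, 61.2% and 63.8% with 5-azadC and 63.7% and 62.6% with the combination. The 4 libraries with 5-azadC lay between 61.2% and 63.8%, and all others at 76.5% or above, a mean difference of -16.5 points. Its adjusted p was 0.376 (unadjusted 0.000459). Of the 8 CpGs in capitals, 6 were lower with 5-azadC alone than with vehicle in the pooled reads, and those 221 and 169 bp before the start were not. With the combination those 221 and 13 bp before the start were not lower. In the upstream part of the window alone, B020031H02Rik differed by -9.57 points. Rapgef3os1 starts in an intron of Rapgef3, on the opposite strand, and had 95.0%, 92.3%, 100% and 97.5% without 5-azadC, 75.2% and 71.4% with it, and 91.2% and 91.5% with the combination. Its 5-azadC libraries were far below and the combination libraries just below the rest, a mean difference of -13.9 points. Here p was 0.000496 (adjusted p = 0.376).

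4930594O21Rik, a lincRNA gene 26034 bp from the nearest coding start (Spry1), had 91.4% and 87.8% in vehicle, 92.2% and 89.1% with C29, 77.9% and 72.5% with 5-azadC and 77.2% and 79.2% with the combination. The 4 libraries with 5-azadC differed from the rest by -13.4 points on average. Its adjusted p was 0.376 (unadjusted 0.000613). Its CpG nearest to the start, 100 bp upstream and the last in capitals, had 96.0% of 99 vehicle reads, 86.0% of 86 C29 reads, 54.9% of 122 5-azadC reads and 75.9% of 83 combination reads. The combination libraries lay far apart there, at 100% and 56.5%. The CpG 342 bp upstream went the other way, with 67.5% of 80 vehicle reads and 100% in each treated group. The remaining CpGs in capitals were lower with 5-azadC alone than with vehicle. With the combination the CpG 262 bp upstream was not, at 100% of 116 reads against 99.35% of 307 vehicle reads. The CpG 222 bp upstream had 14.3% and 100% in the combination libraries. 9130015G15Rik starts in an intron of Nav2, on the opposite strand, with 95.1% to 100% in the libraries without 5-azadC and 72.3% to 85.2% in those with it, a mean difference of -18.4 points. Here p was 0.00282 (adjusted p = 0.426), so none of these promoters was called. With both strands of a CpG summed, 9130015G15Rik differed by -5.11 points.

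**Figure D5:**
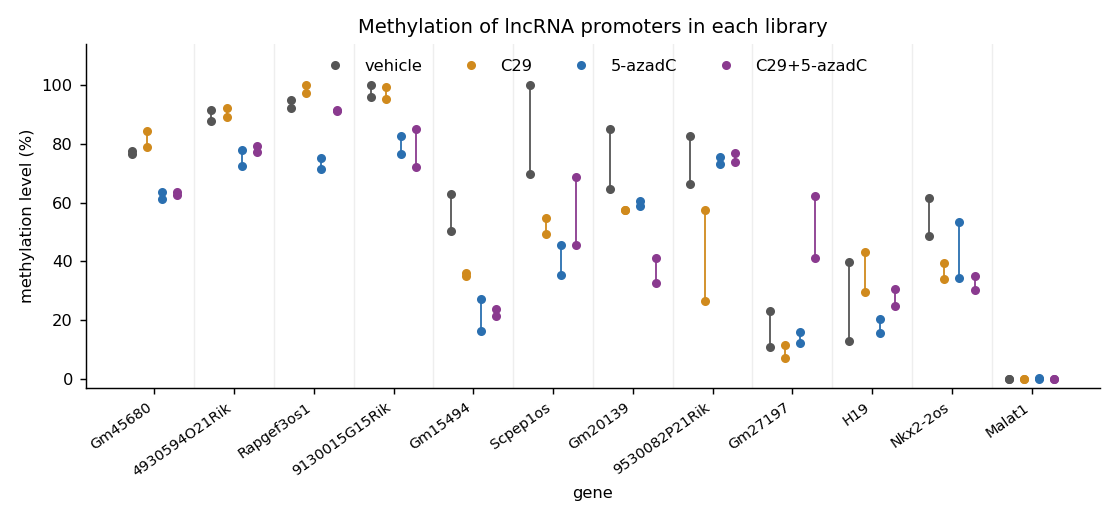
Methylation level (%, vertical axis) of 12 lncRNA promoters (horizontal axis), with a point per library and a line joining the libraries of a group. At Gm45680, 4930594O21Rik, Rapgef3os1 and 9130015G15Rik the 4 libraries with 5-azadC lie below the other 4, at Gm27197 the combination stands alone at 41.3% and 62.4%, and Malat1 is at 0.0% to 0.4%.

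At the most methylated promoters of the set, methylation was near complete with every drug. Gm47020, Gm26613, Gm13974, 4930546C10Rik and Gm6566, which had the highest means over the 8 libraries, ranged from 86.2% to 100% in single libraries. Gm47020 had 100% in 6 of 8 libraries, with 96.1% in 5-azadC library 2 and 99.5% in C29 library 1. They were picked for this mean, treated libraries included.

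Of the lncRNA genes in 4 lists (imprinted, Hox, developmental-gene and cancer-studied), 13 met the coverage and distance limits, and 0 of these 13 were called in any comparison. Of all 762 lncRNA promoters 12.3% were called with at least 1 treatment, and of all windows 3.57%. With 13 promoters the count of 0 does not set the lists apart from the rest. The lists do not cover every studied lncRNA of the set. Of the imprinted-locus lncRNAs, 1 of 11 annotated genes was measured: H19, which is transcribed from the maternal allele and methylated on the paternal one. It had 39.8% and 13.0% in vehicle, 43.1% and 29.6% with C29, 15.5% and 20.4% with 5-azadC and 24.7% and 30.7% with the combination, on 101 to 456 reads. The vehicle libraries spanned nearly the whole range, and all differences (4.59, -10.9 and -3.31 points) were within it. Of its 5 CpGs, the one 99 bp before the start was methylated in 87.1% of 62 vehicle reads and the one 61 bp before it in 0 of 62, which allows a level of up to 4.84%.

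Of the Hox-locus lncRNAs 2 of 11 were measured. Hoxaas3, antisense in the HoxA cluster and read at 32 cytosines, had 58.6% and 48.3% in vehicle, 45.2% and 39.2% with C29, 51.5% and 46.2% with 5-azadC and 56.8% and 45.9% with the combination. Its libraries overlapped except with C29, where the difference was -11.1 points. Hoxb3os was at 0.0% to 4.7% in all libraries. Over these 2 the median difference was -3.39 points for 5-azadC, 0.70 for the combination and -6.00 for C29, where the median over all windows was -0.0596, -0.0517 and 0 points in the same order.

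Of the developmental-locus lncRNAs 2 of 18 were measured, both antisense to homeobox genes. Nkx2-2os, at a gene for a factor of neural and pancreatic development, had 48.8% and 61.5% in vehicle, 34.0% and 39.3% with C29, 53.3% and 34.5% with 5-azadC and 30.1% and 35.1% with the combination over 20 cytosines. C29 and the combination did not overlap vehicle (-16.9 and -21.7 points), and 5-azadC did. Dlx1as had 42.6% and 21.6% in vehicle, and its treated libraries lay between 17.9% and 45.2%. The median difference of the pair was -8.49 points for 5-azadC, -9.20 for the combination and -9.99 for C29.

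Of the cancer-studied lncRNAs 8 of 29 were measured, and 7 of them were low. Malat1, the abundant nuclear-speckle RNA, had 0.0% in 7 libraries and 0.4% in 5-azadC library 1, over 58 to 244 reads, where 0 of 58 reads allows a level of up to 5.17%. Neat1, the scaffold of paraspeckles, stayed between 0.0% and 3.8%. Snhg6, host of a small nucleolar RNA, had 0 methylated reads in every library, and Mir17hg, host of the miR-17-92 cluster, was at 0.0% to 0.9%. The others with little methylation were Mir155hg, host of miR-155, at 4.2% to 9.7% over 52 cytosines, Trp53cor1, the lincRNA-p21 next to Cdkn1a, at 0.0% to 7.4%, and Epb41l4aos at 0.0% to 3.1%. Epb41l4aos was higher in all 4 libraries with 5-azadC (0.3% to 3.1%) than without it (0.0% to 0.1%), by 1.72 points. Miat was the exception in level, with 35.6% and 39.4% in vehicle, 17.8% and 10.1% with C29, 56.4% and 20.5% with 5-azadC and 0.0% and 33.3% with the combination. Over the 8 the median difference was -0.266 points for 5-azadC, -0.0104 for the combination and -0.0911 for C29.

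Grouped by kind of name, the 5 host genes of small RNAs averaged 5.03 ± 0.357% in vehicle and 4.92 ± 1.29% with 5-azadC. The 486 genes with only a Gm number averaged 50.9 ± 0.180% and 44.5 ± 0.629%, and the 160 Rik clones 42.6 ± 0.359% and 37.7 ± 0.359%. The difference of the hosts (-0.107 points) was smaller than the SD of either group, and that of the Gm genes (-6.33 points) was larger. All 5 hosts were in the low class, whose mean differed by -0.90 points with 5-azadC, so the kinds of name were not compared at like levels.

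A group of 3 promoters was set apart by depth. AY036118, Gm42418 and Gm26917, neighbours on chromosome 17, had 235668 to 865381 reads per library, where no other lncRNA promoter exceeded 6844, and together took 80.3% to 82.3% of the reads over lncRNA promoters. AY036118 was at 67.3% in both vehicle libraries, 66.5% and 54.5% with C29, 63.5% and 66.5% with 5-azadC and 65.5% and 63.5% with the combination. Gm42418 and Gm26917 also had their lowest value in C29 library 2 (54.2% and 45.9%). Each promoter has the same weight in the means over promoters, so that these windows do not set them. The means by distance from the start weigh each cytosine alike, and these windows hold 126, 126 and 65 cytosines.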

How the data were processed

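RRBS was measured in 8 libraries (vehicle, C29, 5-azadC and C29+5-azadC, 2 each), assigned to groups by their titles. Diagenode prepared and sequenced the libraries. The authors aligned reads to mm10/GRCm38 with Bismark 0.20.0, and the submitters' processing notes also name FastQC 0.11.8, Trim Galore 0.4.1 and methylKit 1.7.0. No source used here gives the enzyme or trimming settings. The deposited values are, per CpG cytosine and strand, the fraction of methylated reads and the count of reads, without normalization, and their product was a whole number of methylated reads (within 0.01) at nearly all cytosines. RRBS reads fragments near its cutting sites, so a window's level is that of the few CpGs sequenced, and reads that are PCR copies of a molecule count more than once. All 555155 autosomal cytosines with at least 10 reads in all 8 libraries lay at a CG of the genome.

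Gene starts came from GENCODE M21. Methylated and total reads were summed over the cytosines of each window. Each treatment was set against vehicle by a likelihood-ratio test of a logistic model, the default of methylKit (q below 0.01, at least 25 points), and drug factors over all libraries by the overdispersion-corrected F test (q below 0.05), with Benjamini-Hochberg adjustment over 15594 windows. Scripts used Python 3.11.15, NumPy 2.4.6, SciPy 1.17.1, pandas 2.3.3 and matplotlib 3.10.9, and edgeR 4.0.16 and limma 3.58.1 in R 4.3.3. The tests were tested on simulated data. At the spread between libraries seen in intermediate windows of these data, the F test, edgeR and limma made no calls there, over all libraries or with 2 a group, so their counts of 0 carry no information. At that spread the logistic test with its 25-point limit called 159 of 200 windows shifted by 35 points. It also called 217 unshifted windows (1.41%), where 1.32% to 1.62% of all windows were called in the data. An unadjusted F test p under 0.05 for 5-azadC was found at 9.185% of unshifted windows (9.16% of all windows in the data).

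Promoters and lists were chosen with earlier results of these data known. Named promoters are, for each treatment, the 6 largest losses and 4 largest gains among those called with 100 reads in every library and both treated libraries on one side of both vehicle libraries, the 5 of smallest p for 5-azadC, the 5 of highest mean, and members of 4 lists (imprinted, Hox, developmental-gene and cancer-studied lncRNAs). Level classes were set at 20% and 80%. The logistic p-values cover the counting of reads and no spread between libraries. Nothing says whether the pools of a group share mice. The p-values of the F test, edgeR and limma thus measure only the spread between these libraries, which may be technical. Expression was not analysed here.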

Additional observations from a re-analysis of the deposited data

How the results depend on the processing

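Under the alternatives run, no mean difference changed sign, and no named promoter did where it could be recomputed. A promoter left with too few cytosines has no value under that alternative. Gm20139 has none at a minimum of 20 reads, within 500 bp of the start or with both strands summed. Gm15494 and Scpep1os have none within 500 bp of the start or with the upstream part alone. Of 248 differences from vehicle recomputed for called, named promoters, 50 lost their call, 28 shrank and 11 grew by over 1.5 times, and of 78 for the 5-azadC libraries against the rest 2 shrank that much. Counts of calls moved more, and so did the number of promoters left. With a minimum of 20 reads they were 13 (C29), 16 (5-azadC) and 16 (combination) of 409 promoters (3.18%, 3.91% and 3.91%). The mean differences were -5.22 points (5-azadC) and -3.78 points (combination). With a minimum of 5 reads C29 gave 43 of 899 (4.78%). Within 500 bp of the start there were 15 calls with C29 and 28 with the combination, of 553 (2.71% and 5.06%). The mean differences there were -5.20 points (5-azadC) and -4.08 points (combination). With the upstream part alone there were 25 (5-azadC) and 27 (combination) of 358 (6.98% and 7.54%), with differences of -6.55 and -5.26 points. With at least 10 cytosines a window the calls were 0, 1 and 2 of 201, and the differences -2.77 points (5-azadC) and -1.70 points (combination). A minimum difference of 10 points gave 196, 250 and 257 of 762 (25.7%, 32.8% and 33.7%). The shares of all windows called under these alternatives were not taken. The median over promoters in place of the mean differed by -2.59 (C29), -9.59 (5-azadC) and -7.94 points (combination), while the median of the differences of single promoters, chosen after seeing the data, was 0, -3.52 and -2.41 points. With the F test on 2 libraries a group the calls were 0, 0 and 0, and with edgeR 0, 0 and 0, where 15, 13 and 21 promoters had an edgeR p under 0.05 (1.97%, 1.71% and 2.76%, below the 2.82%, 2.74% and 3.07% of all windows). On simulated data with counting error alone, the F test on 2 libraries a group called 0 of 200 windows shifted by 35 points. Its counts of 0 therefore carry no information at any spread. The cause of the other changes was not tested, beyond the smaller number of windows that stricter limits leave.

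Leaving out each library in turn gave 45 to 60 calls with C29 (57 without vehicle library 1, 45 without vehicle library 2, 60 without C29 library 1, 46 without C29 library 2), 60 to 93 with 5-azadC (71 without vehicle library 1, 93 without 5-azadC library 2) and 60 to 85 with the combination (76 without vehicle library 1, 71 and 85 without its own libraries). The mean difference ranged from -2.39 to -0.013 points with C29, -6.27 to -5.74 with 5-azadC and -4.98 to -4.57 with the combination. Counting each distinct set of cytosines once, a choice made after seeing the data, changed no count by over 1.5 times. The replicate numbers did not pair the libraries, since deviations of libraries with the same number correlated at -0.0431 to 0.0618 over all windows. A replicate block gave 28 (C29), 46 (5-azadC) and 44 (combination) calls, and 0 for each drug factor and for the interaction. A median of 5 cytosines a promoter and 2 libraries a group limit the precision of single promoters.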

Other observations

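A share of the measured cytosines lies in sequence that the genome file marks as repeats. Of the 6946 cytosines of lncRNA promoters, each counted once, 334 at 171 promoters were in such sequence. They averaged 45.1 ± 1.12% in vehicle (SD, n = 2 libraries), 44.9 ± 1.63% in C29, 39.2 ± 0.420% in 5-azadC and 39.9 ± 0.227% in the combination. The 6612 other cytosines averaged 33.9 ± 0.119%, 32.1 ± 2.15%, 30.1 ± 0.168% and 30.9 ± 0.369% in the same order. At promoters that were not in the low class, the repeat cytosines (222) differed from vehicle by -8.24 points with 5-azadC and -7.04 points with the combination, and the others (3452) by -6.83 and -5.32 points. With C29 the order was the reverse, with -0.533 points in repeats and -3.33 points outside them, where the C29 libraries had an SD of 3.73 points. These differences between kinds of cytosines were not tested.

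Methylation by distance to the nearest coding start, among promoters of the set, was 42.5 ± 0.857% in vehicle at 2 to 5 kb (86 promoters), 47.7 ± 0.445% at 5 to 20 kb (216) and 48.3 ± 0.230% beyond 20 kb (460). The differences with 5-azadC were -4.49, -6.28 and -6.16 points. By type, lincRNA promoters were at 44.7 ± 0.311% in vehicle and 38.9 ± 0.590% with 5-azadC, and antisense promoters at 54.2 ± 0.177% and 47.8 ± 0.141%.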
